A study of Mus musculus with 12 samples.

Results

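Poly(A) sites that close a tandem series of sites and carry the canonical polyadenylation signal are described here. The members are the most downstream clusters, on their strand, of runs of 2 or more poly(A) site clusters in which neighbouring clusters lie no more than 2000 nt apart edge to edge. Each member is listed with the canonical hexamer at a distance of 15 to 30 nt. There were 11471 members among 145179 clusters in the catalogue, or 7.90% (95% Wilson interval 7.76 to 8.04%). They closed 44.9% of the 25530 runs (interval 44.3 to 45.5%), with 80 mitochondrial clusters left out, and made up 22.1% of the 51959 clusters with the canonical hexamer at that distance. The name fits the rule by construction, because hexamer, distance and place in the run chose the members. These 3 features are therefore given below as description of the members and are not tested as their traits. The share of run ends that were members was tested only against run size, which the rule read only as 2 or more.

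The study asked where polyadenylated transcripts end in mouse embryonic stem cells when the nuclear exosome is depleted or U1 snRNP is blocked. All groups shared the Exosc3 CKO genotype, in clones of V6.5 cells that were maintained in doxycycline. There were 6 groups of 2 libraries each. One pair of groups was dox+ (Exosc3+, 0.1 μg/ml) and dox- (Exosc3-), both sampled at 3 days. The other 4 groups were dox+ or dox- for 2 days, each with U1 AMO or Scr AMO, antisense morpholino oligonucleotides nucleofected at 15 μM 8 hours before harvest. The labels do not say how many clones were used or whether replicates came from separate cultures. RNA ends were read by 2P-seq, which starts each read at the poly(A) tail. The deposited table is 1 catalogue for all 12 libraries, and 0 of its 7 columns hold a value per library. Depth is therefore unknown, and the level of a member in any group, the effect of doxycycline or AMO, and the stem cell markers of the cultures were not analysed here.

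Cleavage and polyadenylation of a messenger RNA precursor is directed by a hexamer just upstream of the cut, which the cleavage and polyadenylation specificity factor binds, together with a downstream GU-rich or U-rich element bound by the cleavage stimulation factor. Many mammalian genes carry several poly(A) sites in tandem, and choosing an earlier or a later one gives transcripts with shorter or longer 3' ends. Proximal sites are known to use variant hexamers more often than distal ones, and U1 snRNP protects nascent transcripts from premature use of poly(A) sites.

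The hexamers that the results turn on are shown 5' to 3', in capitals because every base belongs to the signal, and changes are counted from 1 at the 5' end of the canonical hexamer. They are the member hexamer and the 3 other hexamers listed most often for the next site upstream of a member. The flanking sequence was not analysed here.
canonical signal of all members: AATAAA
main variant, change A2T: ATTAAA
variant with change A1T: TATAAA
variant with change A2G: AGTAAA

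Members were found on both strands in nearly equal number and on every autosome. The plus strand held 5753 and the minus strand 5718, which was 44.8% and 45.1% of the run ends of each strand (intervals 43.9 to 45.6% and 44.2 to 46.0%). Autosomes held 11096 members, the X chromosome 354, the Y chromosome 1 and unplaced sequence 20. Members made up 44.9% ± 2.01 of run ends over the 19 autosomes (SD), from 41.6% on chromosome 19 (interval 38.2 to 45.1%) to 48.1% on chromosome 14 (interval 44.9 to 51.4%). On the X chromosome the share was 50.1% (interval 46.4 to 53.7%), whose interval overlaps that of chromosome 14. It does not overlap those of chromosome 7 (41.6%, interval 39.3 to 43.9%), chromosome 8 (41.8%, interval 39.4 to 44.2%) or chromosome 11 (44.0%, interval 41.8 to 46.2%). Nor does it overlap those of chromosome 5 (43.7%, interval 41.3 to 46.1%), chromosome 17 (42.1%, interval 39.3 to 44.9%) or chromosome 19. These shares were not tested against each other. Because no library values exist, comparisons below were made per autosome and tested with a 2-sided sign-flip permutation test over the 19 paired differences, with Benjamini-Hochberg adjustment over 18 comparisons. Chromosomes are not biological replicates, so these p-values measure the spread between chromosomes and say nothing about other cultures. Of these, 3 concern the signal distance, which the rule read, and are given as values only. Of the other 15 comparisons, 13 had an adjusted p under 0.05, and the smallest p the test can give is 1e-05. The rule also bounded the gaps and run sizes among them, so those results hold only within its limits. The bounds on the tested measure were alike in the classes compared. The lone sites described below, however, were also chosen to have no neighbour upstream, where members have one.

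Comparisons were made with 3 kinds of site that share all but 1 feature of the rule. The 18849 upstream sites carry AATAAA at 15 to 30 nt in a run but do not end it. The 21639 lone sites carry it with no neighbour on the strand within 2000 nt. The 3642 ATTAAA ends close a run with the main variant at 15 to 30 nt.

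The signal of a member most often lay 20 nt from its cluster. That distance was listed for 1444 members, 12.6% of them (interval 11.99 to 13.2%), and 8212 members (71.6%) had it at 18 to 24 nt. The median was 21 nt with quartiles of 19 and 24 nt. Toward the limits of the rule the profile thinned out, with 198 members at 15 nt and 166 at 30 nt. Just outside, 116 run ends had AATAAA at 14 nt and 117 at 31 nt. Their median widths of 14 and 13 nt were close to the 14.5 and 13 nt of members at 15 and 30 nt. Of the 13769 run ends with AATAAA at any distance, 83.3% were members.

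**Figure D1:**
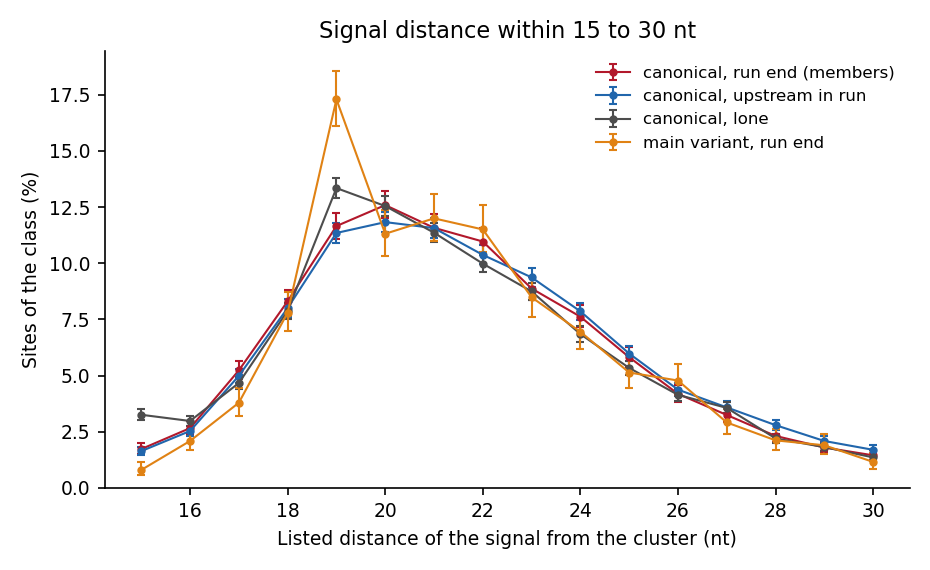
Share of sites of each class (y axis, percent) by the listed distance of the signal from the cluster (x axis, nt), with 95% Wilson intervals as bars. Members and upstream sites peak at 20 nt, lone sites and main-variant run ends at 19 nt, and at 15 nt the lone sites stand at 3.25% against 1.73% of members.

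Mean distances are given without a test, because the rule read the distance and its window bounds every class. Members averaged 21.5 nt ± 0.135 (SD over 19 autosomes), upstream sites 21.7 nt ± 0.118, lone sites 21.4 nt ± 0.0802 and ATTAAA ends 21.6 nt ± 0.170. The mean of members minus that of upstream sites was -0.186 nt ± 0.146 within 15 to 30 nt, -0.286 nt within 10 to 35 nt and -0.035 nt within 18 to 25 nt, and among clusters of at most 5 nt it was -0.016 nt. Members minus lone sites gave 0.138 nt ± 0.163, with 0.947 nt within 10 to 35 nt, 0.045 nt within 16 to 30 nt and 0.104 nt within 18 to 25 nt. Members minus ATTAAA ends gave -0.039 nt ± 0.220, with -0.252 nt within 10 to 35 nt and 0.145 nt within 18 to 25 nt. These means thus moved with the window by as much as they differed. At 15 nt stood 3.25% of lone sites (interval 3.03 to 3.50%) and 1.73% of members (interval 1.50 to 1.98%). ATTAAA ends had 17.3% of their sites at 19 nt (interval 16.1 to 18.6%), where members had 11.7% (interval 11.1 to 12.3%).

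Clusters of members were of intermediate width. Cluster width is the stretch over which read ends were joined into 1 site, and it can depend on how far cleavage scatters and on how many reads were available. The median member was 12 nt wide (quartiles 5 and 22 nt), against 15 nt for upstream sites, 9 nt for ATTAAA ends and 7 nt for lone sites. Only 1 nt was covered by 7.28% of members (interval 6.82 to 7.77%), 5.97% of upstream sites (interval 5.64 to 6.32%), 9.94% of ATTAAA ends (interval 9.01 to 10.95%) and, among lone sites, 14.2% (interval 13.8 to 14.7%). Clusters over 50 nt made up 3.56% of members, 7.15% of upstream sites and 1.04% of lone sites.

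On each autosome the geometric mean width of members lay between 8.84 and 11.4 nt. Upstream sites ran from 11.2 to 13.7 nt, ATTAAA ends from 6.67 to 8.56 nt and lone sites from 5.19 to 6.64 nt. The ranges of members and upstream sites overlapped slightly, and every autosome had members wider than the other 2 classes. Members were 0.803-fold as wide as upstream sites, a log2 difference of -0.32 ± 0.085 (SD) with the same sign on 19 of 19 autosomes (permutation test, adjusted p = 2e-05). They were 1.71-fold wider than lone sites, a log2 difference of 0.77 ± 0.091 on 19 of 19 autosomes (permutation test, adjusted p = 2e-05). They were 1.33-fold wider than ATTAAA ends, a log2 difference of 0.41 ± 0.15, also on 19 of 19 (permutation test, adjusted p = 2e-05). Read depth per site may differ between these classes, and its part in the widths was not tested. Upstream sites also stood in larger runs, with a mean run size of 5.92 sites against 3.78 for members. Members closing runs of 5 or more sites had a geometric mean width of 12.5 nt, and upstream sites of all runs had 12.5 nt. The part of run size in the difference from upstream sites was not tested.

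**Figure D2:**
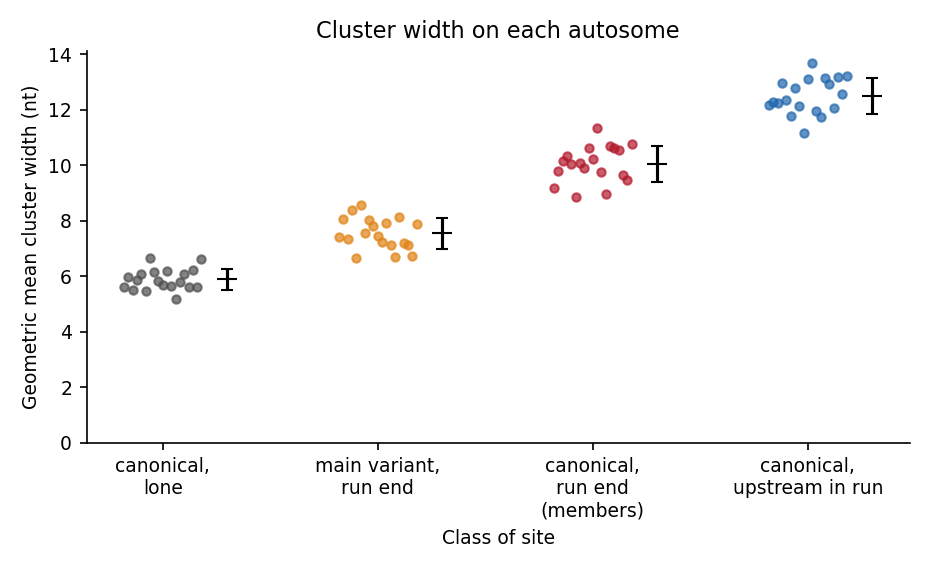
Geometric mean cluster width in nt (y axis, from 0) of 4 classes of site (x axis), with a point for each of 19 autosomes and the mean ± SD over autosomes as a bar to the right. Lone canonical sites lie at 5.19 to 6.64 nt, main-variant run ends at 6.67 to 8.56 nt, members at 8.84 to 11.4 nt and upstream canonical sites at 11.2 to 13.7 nt.

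Width also varied among the members with the crowding of their run. The median width rose from 10 nt in runs of 2 sites to 14 nt in runs of 5, and was 14 nt in runs of 10 or more. On the log2 scale members closing runs of 5 or more sites exceeded those closing runs of 2 by 0.53 ± 0.15 (19 of 19 autosomes, permutation test, adjusted p = 2.33e-05). Members with the next site within 100 nt upstream were 2.08-fold as wide as those with it beyond 1 kb, a log2 difference of 1.06 ± 0.17 (19 of 19 autosomes, permutation test, adjusted p = 2.33e-05). Even in runs of 2 the members were 1.47-fold wider than lone sites (log2 difference 0.56 ± 0.10, 19 of 19 autosomes, permutation test, adjusted p = 2.33e-05). These 3 comparisons belong to 7 that were added after the catalogue had been examined and were adjusted among themselves.

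Within a run, the member was compared with the next site upstream of it. In 11471 such pairs the member was the wider in 5992 (52.2%) and the narrower in 5033 (43.9%). Where the next site did not have AATAAA at 15 to 30 nt, the member was the wider in 57.2% of 7062 pairs, with median widths of 13 nt for members and 9 nt for their neighbours. Where both sites had it, the member was the narrower in 51.4% and the wider in 44.3% of 4409 pairs. The mean log2 difference in these canonical pairs was -0.16 ± 0.19 (SD), with the member the narrower on 14 of 19 autosomes (permutation test, adjusted p = 0.00406). With runs joined at 500 nt this was -0.048 and no longer passed.

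Member-ended runs were mostly short. A pair of sites formed 5302 of them, 46.2% (interval 45.3 to 47.1%), and 585 (5.10%) held 10 or more sites. Together the member-ended runs held 43383 clusters, the median span was 1204 nt (quartiles 501 and 2034.5 nt) and the longest was 13551 nt. The share of run ends that were members was 46.0% in runs of 2 sites (interval 45.1 to 46.9%), 44.6% in runs of 5 (interval 42.3 to 46.9%) and 44.4% in runs of 10 or more (interval 41.7 to 47.0%). Over autosomes, runs of 5 or more differed from runs of 2 by -1.77 percentage points ± 3.72, lower on 13 of 19 (permutation test, adjusted p = 0.0593). This depended on the join distance, with -9.16 points at 500 nt, -5.34 at 1000 nt and 0.609 at 4000 nt. Member-ended runs differed from other runs by -0.025 ± 0.049 in mean log2 size (lower on 13 of 19 autosomes, permutation test, adjusted p = 0.0409), and its size rested on the settings. It was -0.094 and -0.064 at join distances of 500 and 1000 nt (lower on 19 of 19 autosomes at both), -0.043 within 10 to 35 nt and 0.0044 at 4000 nt, and it did not pass on either strand alone.

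The next site upstream stood farther from members than from other run ends. The median gap was 544 nt (quartiles 178 and 1117.5 nt) before members and 371 nt (quartiles 115 and 931 nt) before the 14059 other run ends. Gaps of 100 nt or less were found for 15.7% of members (interval 15.0 to 16.4%) and 22.6% of other ends (interval 22.0 to 23.3%). Gaps beyond 1 kb were found for 29.2% and 22.8%. Before ATTAAA ends, which are part of the other ends, the median gap was 515 nt (quartiles 194.5 and 1085 nt). Of their gaps 27.8% exceeded 1 kb, so their spacing was close to that of members. Members and ATTAAA ends were not tested against each other in this gap. The log2 gap of members was larger than that of all other ends by 0.41 ± 0.11 (SD), or 1.33-fold, on 19 of 19 autosomes (permutation test, adjusted p = 2e-05). In close pairs a site can be listed with its upstream neighbour's signal at a distance outside the window, which would count it among the other ends. The part of this in the gap difference was not tested. With runs joined at 500 nt, which limits the gap itself, the difference was 0.24.

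**Figure D3:**
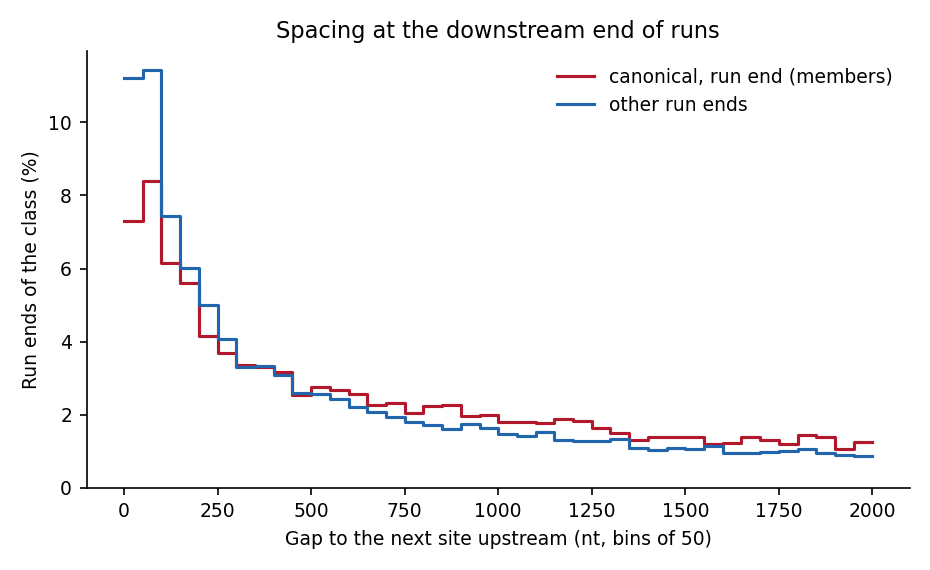
Share of run ends (y axis, percent) by the gap to the next site upstream (x axis, nt, bins of 50 nt), for 11471 members and 14059 other run ends. Other run ends are more frequent below 300 nt and members more frequent in most bins above 500 nt.

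The site before a member more often had the canonical signal itself. AATAAA at 15 to 30 nt was listed for 4409 of the next upstream sites of members, 38.4% (interval 37.5 to 39.3%), and for 4389 of those of other run ends, 31.2% (interval 30.5 to 32.0%). Per autosome the shares were 33.7 to 42.3% before members and 26.7 to 38.8% before other ends, so the ranges overlapped. The difference within autosomes was 6.95 percentage points ± 2.96 (SD), positive on 19 of 19 (permutation test, adjusted p = 2e-05). It was 10.9 points with runs joined at 500 nt and 4.69 points at 4000 nt (positive on 18 of 19). Within 18 to 25 nt it was 4.67 points, and 5.69 points where pairs within 100 nt were left out (positive on 17 of 19 in both). Sites without any hexamer preceded 8.33% of members and 13.2% of other ends (difference -4.77 points ± 1.09, 19 of 19 autosomes, permutation test, adjusted p = 2e-05), and -2.68 points at a join distance of 4000 nt. A-rich hexamers, meaning at least 5 A and not AATAAA, preceded 6.69% and 8.54% (difference -1.86 points ± 1.44, 17 of 19 autosomes, permutation test, adjusted p = 0.000196). They resemble the A-rich stretches where an oligo-dT primer can bind inside a transcript, but such priming was not tested. The class includes AAGAAA, the variant with change T3G, listed before 2.36% of members and 3.17% of other ends. The A-rich difference was -2.95 points at a join distance of 500 nt, -1.07 points where pairs within 100 nt were left out and -0.881 at a join distance of 4000 nt. Before ATTAAA ends, which are part of the other ends, 9.03% of next sites had no hexamer (interval 8.15 to 10.01%). This overlapped the interval of members (7.84 to 8.85%). A-rich hexamers preceded 7.83% of ATTAAA ends (interval 6.997 to 8.74%), which overlapped the intervals of members (6.24 to 7.16%) and of all other ends (8.09 to 9.02%). Members and ATTAAA ends were not tested against each other in these shares.

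Among the other hexamers before members, ATTAAA was listed for 18.1% of next upstream sites (interval 17.4 to 18.8%), TATAAA for 5.28% (interval 4.89 to 5.71%) and AGTAAA for 3.58% (interval 3.26 to 3.94%). AATAAA at any distance was listed for 45.8%. Before ATTAAA ends, the share of ATTAAA was 19.9% (interval 18.7 to 21.3%) and that of AATAAA 39.6% (interval 38.1 to 41.2%).

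The difference depended on how close the next site lay. Before members the canonical share was 37.7% at gaps of 101 to 200 nt, 40.5% at 501 to 1000 nt and 38.4% at 1001 to 2000 nt (interval 36.8 to 40.1%). Before other run ends it climbed from 28.1% to 33.8% and 37.0% (interval 35.4 to 38.7%) over the same gaps. Beyond 1 kb the classes did not differ beyond their spread over autosomes (1.56 percentage points ± 5.98, positive on 11 of 19, permutation test, adjusted p = 0.267). The effect at 101 to 500 nt, 7.94 points, exceeded that beyond 1 kb by 6.37 points ± 8.17 on 15 of 19 autosomes (permutation test, adjusted p = 0.00524), and by 3.83 points, which did not pass, on the minus strand alone. In closer pairs a site can lie near enough to its upstream neighbour to be listed with that neighbour's signal, since listed distances can exceed the gap, and the part of this in the result was not tested. At 26 to 50 nt only 4 of 171 ATTAAA ends followed a canonical site (2.34%, interval 0.913 to 5.86%), against 248 of 782 members (31.7%, interval 28.5 to 35.1%). Beyond 100 nt, members exceeded ATTAAA ends by 3.17 points ± 6.03 (14 of 19 autosomes, permutation test, adjusted p = 0.0411), which did not pass on either strand alone (3.51 and 2.38 points) or within 18 to 25 nt (0.929 points).

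**Figure D4:**
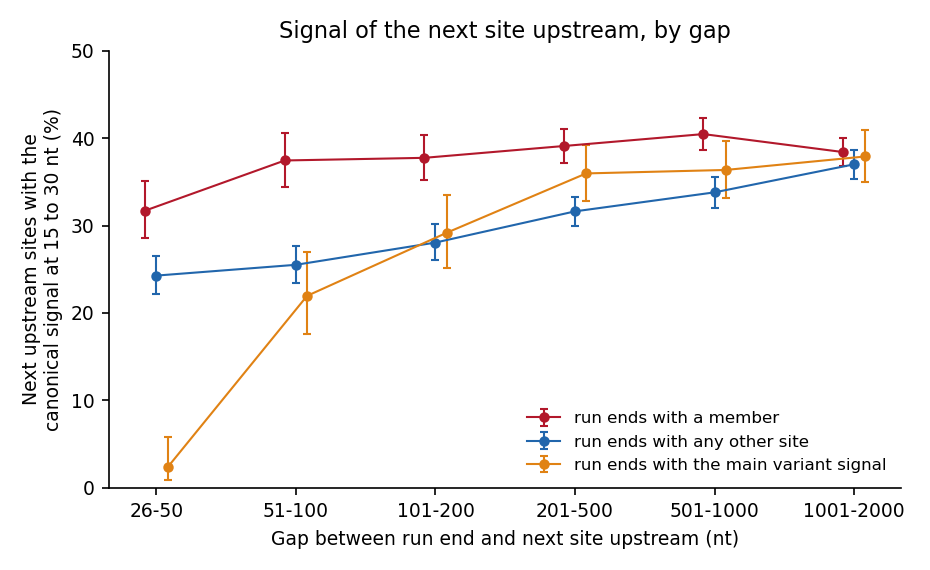
Share of next upstream sites with the canonical signal at 15 to 30 nt (y axis, percent) by the gap to the run end (x axis, nt), for runs that end with a member, with any other site, or with the main variant signal (part of the other sites), with 95% Wilson intervals. The lines are far apart at 26 to 50 nt (31.7% before members) and come together at 1001 to 2000 nt, at 38.4%, 37.0% and 37.9%.

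Farther up the run the canonical signal thinned out in both kinds of run. In member-ended runs it was listed for 38.4% of sites 1 place before the end, 29.2% at 2 places (interval 28.1 to 30.4%), 23.9% at 3 (interval 22.6 to 25.3%) and 16.1% at 6 or more (interval 15.2 to 17.1%). In other runs the shares were 31.2%, 26.5%, 23.0% and 14.6%. Longer runs contribute more of the far places, so runs of exactly 5 were also counted. In the 802 that ended with a member, the share was 36.4% at 1 place before the end (interval 33.2 to 39.8%). It was 25.9% at 2 (interval 23.0 to 29.1%), 24.8% at 3 and 23.3% at the most upstream site (interval 20.5 to 26.4%). The intervals at 2 places and at the most upstream site overlapped. In the 996 other runs of 5 it was 28.9% (interval 26.2 to 31.8%), 24.4%, 21.5% and 18.8% (interval 16.5 to 21.3%) at the same places. In member-ended runs of 3 or more sites, the next-to-last site exceeded the most upstream site by 10.7 percentage points ± 3.51 (36.2% ± 2.55 against 25.5% ± 2.87, SD over 19 autosomes, positive on 19 of 19, permutation test, adjusted p = 2e-05). With runs joined at 500 nt this was 5.45 points. The member was the only canonical site of its run in 5232 runs, 45.6% (interval 44.7 to 46.5%). There were 2 such sites in 38.4%, 3 in 10.4% and 4 or more in 5.57% of runs, with a maximum of 14.

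**Figure D5:**
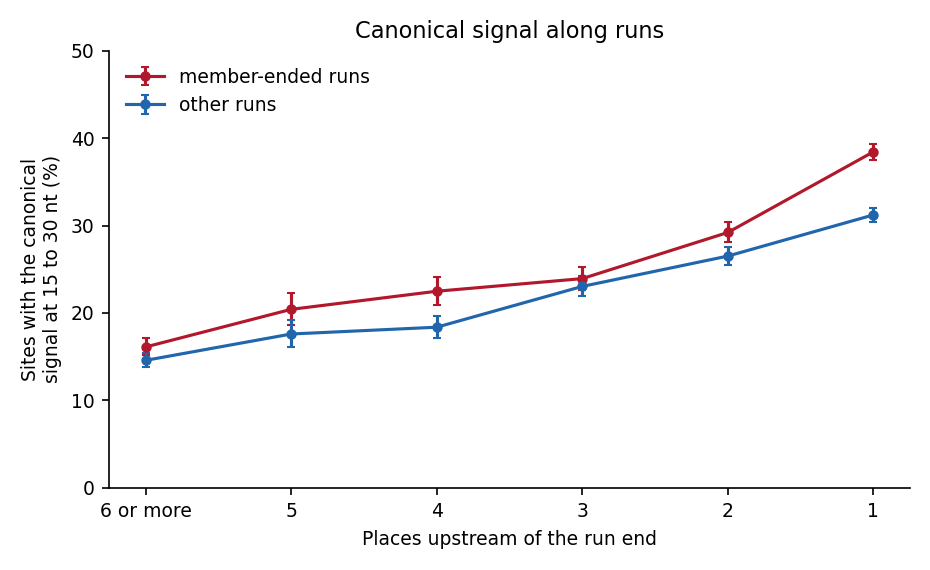
Share of sites with the canonical signal at 15 to 30 nt (y axis, percent) by place upstream of the run end (x axis), for 11471 member-ended and 14059 other runs, with 95% Wilson intervals; the end itself is not drawn because it defines the classes. Both lines climb toward the run end, from 16.1% to 38.4% in member-ended runs and from 14.6% to 31.2% in the others.

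Downstream of a member the strand was empty for more than 2000 nt by the rule, and usually for much longer. The median gap to the next site was 12604 nt (quartiles 4770 and 39876.5 nt), and 8 members had no site farther down their strand. It exceeded 10000 nt for 55.8% of members (interval 54.8 to 56.7%), 67.5% of lone sites and 49.2% of ATTAAA ends. By the rule this gap was over 2000 nt for lone sites and ATTAAA ends too. Lone sites were also chosen to have no neighbour within 2000 nt upstream, whereas members were chosen to have one. The classes were thus sorted by how close other sites lie on the strand. The difference from lone sites cannot be read apart from this choice, and its part was not tested. The log2 gap of members was below that of lone sites, with a difference of -0.63 ± 0.10 (SD, 19 of 19 autosomes, permutation test, adjusted p = 2e-05), or 0.648-fold. That log2 difference was -0.96 with runs joined at 500 nt and -0.57 at 4000 nt. Against ATTAAA ends the log2 gap of members was larger by 0.27 ± 0.16 (18 of 19 autosomes, permutation test, adjusted p = 3.6e-05), with 0.46 at a join distance of 500 nt and 0.14 at 4000 nt. The next site downstream of a member was canonical at 15 to 30 nt in 41.2% of cases (interval 40.3 to 42.1%). In 64.7% of cases that next site, whatever its hexamer, had no neighbour on its strand within 2000 nt. At the limit of the rule, 314 members had the next site at 2001 to 2200 nt and 705 upstream sites had it at 1801 to 2000 nt, with median widths of 11 and 10 nt.

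On the opposite strand, 1118 members (9.75%, interval 9.22 to 10.3%) had a site that overlapped them or lay within 1 kb past their 3' edge, the arrangement of transcripts that run toward each other. For 273 members (2.38%, interval 2.12 to 2.68%) the clusters overlapped. The nearest such site was canonical at 15 to 30 nt in 42.1% of cases (interval 39.3 to 45.0%), against 35.8% of all clusters, and was itself a member in 134 cases (11.99%, interval 10.2 to 14.0%), against 7.91% of all clusters. The nearest such site was also canonical for upstream sites in 44.2% of cases, for lone sites in 44.8% and for ATTAAA ends in 40.1%, and it was a member in 15.3%, 11.4% and 11.04% of cases. These shares were not tested. Over autosomes the share with an opposite-strand site was 9.58% ± 2.43 for members (range 6.25 to 13.6%), 6.79% ± 2.14 for lone sites and 11.2% ± 2.66 for upstream sites. Members exceeded lone sites by 2.79 points ± 1.62 (18 of 19 autosomes, permutation test, adjusted p = 2e-05) and differed from upstream sites by -1.65 points ± 1.45 (16 of 19, permutation test, adjusted p = 0.000471), or -1.05 points with a reach of 500 nt. ATTAAA ends, at 8.58% ± 2.75, differed from members by 0.997 points ± 2.68 (12 of 19 autosomes, permutation test, adjusted p = 0.129), which passed only with a reach of 500 nt (1.20 points).

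Some members stand out by their position (mm9, starts counted from 1). The member with the most sites in its run lay on the minus strand of chromosome 6 from 51406614 to 51406622. Its run held 49 sites over 13551 nt, the longest span of any member-ended run, and 14 of them were canonical at 15 to 30 nt. A minus-strand member on chromosome 19 from 5795686 to 5795703 closed a run of 42 sites over 7645 nt in which only 2 were canonical. A plus-strand member on chromosome 12 from 112786102 to 112786125 closed a run of 37 sites over 8308 nt with 3 canonical sites. The next longest spans were 11952 nt, closed on the minus strand of chromosome 6 at 7620411 to 7620425, and 11751 nt, closed on the plus strand of chromosome 13 at 90255910, where 11 of 31 sites were canonical.

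The widest members were a plus-strand cluster of 173 nt on chromosome 6 from 128789278 to 128789450, a minus-strand cluster of 160 nt on the X chromosome from 163644968 to 163645127 and a plus-strand cluster of 158 nt on chromosome 7 from 100023521 to 100023678. The largest gap that still joined a member to its run was 2000 nt, on the minus strand of chromosome 4 at 131904074, before a TATAAA site, and at 1999 nt stood 3 members, among them those on chromosome 10 from 62251654 to 62251662 and on chromosome 18 from 25501848 to 25501849. At the other extreme, 7 members lay 1 nt from the next site. Of these, the minus-strand member on chromosome 1 at 60045919 had AATAAA at 21 nt and its neighbour at 19 nt, the one on chromosome 11 at 30793730 had it at 30 nt against 27 nt, and the one on chromosome 13 from 74748094 to 74748095 at 25 nt against 22 nt. In 34 members the gap was smaller than the listed distance of the signal. Which genes these sites belong to was not analysed here, and a run can join sites of different genes.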

How the data were processed

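The authors deposited 1 catalogue for 12 libraries, which per the file headers gives each cluster's genomic position, strand, hexamer and distance to the hexamer in nt. The submitters' processing notes name Trimmomatic, STAR, bedtools and the mm9 build. How read ends were joined into clusters, how A-rich priming was treated, the order of the hexamer search and the point from which distances were counted are not given in the sources used here. Each start was read as counted from 0, with the end included. Runs, classes and gaps were computed from these positions. Members, lists and comparisons were chosen with earlier results of these data known. Means per autosome were compared with a 2-sided sign-flip permutation test (100000 resamples, seed 1), adjusted by Benjamini-Hochberg over 18 planned and 7 added comparisons separately. The 3 planned comparisons of signal distance are given as values, since the rule used it. Gaps and run sizes, which the rule bounded alike in the classes compared, were tested within those bounds. In the downstream gap, lone sites differed from members by the rule in having no near neighbour upstream. Shares carry 95% Wilson intervals, which cover counting error only and treat sites as independent. Scripts were tested on simulated data. Sites were named by a fixed rule, the 3 most extreme members by run size, width, run span, and longest and shortest gap upstream, with ties by position. Alternatives were join distances of 500, 1000 and 4000 nt, signal windows of 10 to 35, 18 to 25 and 16 to 30 nt, each strand, limits on cluster width (at most 50 nt, at most 5 nt, over 1 nt), other reaches, runs of 3 or more, and close pairs left out. Versions were matplotlib 3.10.9, scipy 1.17.1, pandas 2.3.3 and numpy 2.4.6 under Python 3.11.15.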

Additional observations from a re-analysis of the deposited data

Results flagged for a closer look

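One result was noted because an effect differed between 2 sets of runs. The excess of canonical signals at the next upstream site of member-ended over other runs was 7.94 percentage points ± 5.74 (SD over 19 autosomes) at gaps of 101 to 500 nt and 1.56 ± 5.98 beyond 1 kb. The difference of these effects was 6.37 points ± 8.17, positive on 15 of 19 autosomes (permutation test, adjusted p = 0.00524), and this comparison was chosen after the catalogue had been examined.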

How the results depend on the processing

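Of 22 tested results, 16 kept their direction and their side of the threshold under every alternative run for them, and 6 did not; the causes were not tested except where the setting itself shows them. The share of run ends that were members, in runs of 5 or more against runs of 2, was -9.16, -5.34 and 0.609 percentage points at join distances of 500, 1000 and 4000 nt, -3.13 with a window of 10 to 35 nt, -1.79 with clusters up to 50 nt and -1.87 with runs of 3 or more. The log2 run size difference was -0.094, -0.064 and 0.0044 at 500, 1000 and 4000 nt, -0.019 within 18 to 25 nt, -0.027 and -0.025 on the plus and minus strand, and -0.024 with clusters over 1 nt. The mean distance, given without a test, also moved with the settings. For members against ATTAAA ends it was -0.252 nt within 10 to 35 nt and 0.145 nt within 18 to 25 nt. Against upstream sites it was -0.035 nt within 18 to 25 nt and -0.016 nt with clusters up to 5 nt, and against lone sites 0.947 nt within 10 to 35 nt, 0.045 nt within 16 to 30 nt and 0.104 nt within 18 to 25 nt. Opposite-strand sites, members against ATTAAA ends, differed by 1.20 points with a reach of 500 nt. The canonical share before members against ATTAAA ends was 0.929 points within 18 to 25 nt, 3.51 on the plus and 2.38 on the minus strand, and its change with the gap was 3.83 points on the minus strand. The log2 width within canonical pairs was -0.048 at a join distance of 500 nt and -0.12 within 18 to 25 nt. Membership itself moved with the join distance, with 7982 members at 500 nt, 5469 of them shared with the 11471 at 2000 nt (68.5% of the smaller and 47.7% of the larger set), and 12117 members at 4000 nt, 9164 of them shared (75.6% and 79.9%). The gap-limited comparisons beyond 1 kb could not be made at join distances of 500 and 1000 nt. No paired analysis was possible because the catalogue holds no value per library, so same-numbered replicates could not be set against each other and no replicate could be left out. Depth per site is unknown and limits what the widths can show.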
